A study of Mus musculus with 18 samples.

Results

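The expression values of 5 of 18 mouse bone marrow arrays spread over a narrower range than those of the other 13, and this account sets those 5 arrays against the rest. For each array the interquartile range, the distance between the 25th and the 75th percentile, was taken over the log2 values of all 45101 probesets, and the arrays with a range below 3.1 were called narrow. They were CCAT2-T replicates 1 and 2, WT replicates 1 and 2, and CCAT2-G replicate 1. The arrays were thus chosen by their own measured values, and the split is no group of the study. Because every value on an array entered the rule, the differences between narrow and other arrays below are a description with no test. The study compared marrow from C57Bl6 mice, 1 array per mouse: 4 wild-type (WT) mice, 4 mice labelled CCAT2-G overexpressing, 4 labelled CCAT2-T overexpressing and 6 labelled CCAT2-GT overexpressing. CCAT2 is a long non-coding RNA, and the labels say that the engineered mice overexpressed its G or T form in all tissues, without naming a promoter, a founder line, an age or a sex. Mice of the CCAT2-G and the CCAT2-T genotype form the group of 8 labelled DRAI-. The CCAT2-GT mice are the group labelled DRAI+, a status that the labels do not spell out. Marrow cells were flash-frozen, RNA was extracted with Trizol, and 5 ug of it per mouse was copied into biotin-labelled cRNA for Affymetrix hybridisation.

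Whole marrow is a mixture in which developing neutrophils, red cell precursors, B cells at several stages and monocytes are the main populations, and platelet-forming megakaryocytes, macrophages and stroma are rarer. RMA, the processing named for these arrays, evens out the brightness of single probes across arrays before they are combined into probesets, so that arrays usually end up alike in spread without being forced to an identical one. Affymetrix arrays also carry control probesets that detect bacterial or phage transcripts and no mouse gene. In the maker's protocol, poly-A controls are added to the RNA before labelling and hybridisation controls to the labelled cRNA, and the labels do not say which kit or amounts were used here.

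The interquartile range was 2.90 in CCAT2-T replicate 1, 2.97 in CCAT2-G replicate 1, 2.98 in CCAT2-T replicate 2, 3.03 in WT replicate 1 and 3.07 in WT replicate 2. Just outside the threshold stood CCAT2-GT replicate 5 and CCAT2-G replicate 2, both at 3.15, and the widest arrays were WT replicate 4 at 3.35 and WT replicate 3 at 3.36. The WT mice thus supplied both the widest arrays and members of the narrow set. The same 5 arrays were the 5 lowest by the standard deviation of all values, by the distance from the 5th to the 95th percentile, over genes that passed the filter and over probesets with 1 gene symbol. Array means were nearly equal, between 4.82 and 4.83 on all 18. The difference lay in the shape of the distribution: the 25th percentile was higher on the narrow arrays, at 3.12 to 3.20 against 2.99 to 3.09, and the 75th was lower, at 6.10 to 6.19 against 6.23 to 6.35.

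Dim probesets read higher and bright probesets lower on the narrow arrays. A choice of arrays by a small interquartile range, at nearly equal means, favours such a pattern, so it is no separate result. With all probesets ranked by mean level and cut into 10 equal bins, the median difference, narrow minus other arrays, was 0.06 in bin 1, the dimmest, 0.14 in bin 4 and 0.10 in bin 6. It was -0.04 in bin 7 and -0.15, -0.18 and -0.18 in bins 8, 9 and 10. In the dimmest bin 73.8% of probesets were higher on the narrow arrays, and in the brightest 23.4%. Any list of bright genes therefore carries a lower value on the narrow arrays of about this size. The list differences below are not corrected for it, and the value for genes of like level is given beside some of them. For B-cell precursor, MHC class II, mature neutrophil, heat shock and housekeeping genes that value was -0.08, -0.13, -0.16, -0.14 and -0.17.

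**Figure D1:**
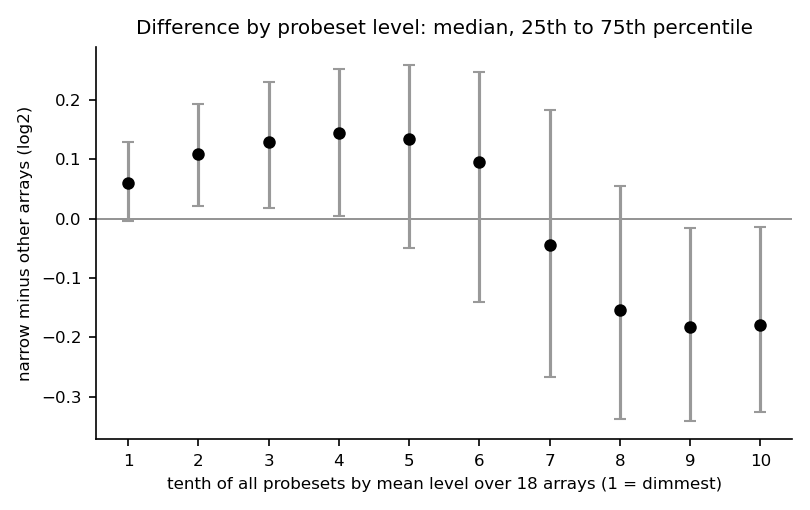
Median difference between the 5 narrow and the 13 other arrays (log2, points) in 10 equal bins of the 45101 probesets by mean level, with bars from the 25th to the 75th percentile of probesets. The medians run from 0.06 in the dimmest bin through 0.14 in bin 4 to -0.18 in the brightest.

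The narrow arrays resembled each other closely. Over all probesets the correlation between 2 narrow arrays was 0.991 to 0.996 (10 pairs), between a narrow and another array 0.968 to 0.992 (65 pairs), and between 2 other arrays 0.955 to 0.994 (78 pairs). Each of the 5 correlated best with another narrow array, although they came from 3 genotypes. CCAT2-G replicate 2, just outside the threshold, was the other array most like them, with a mean correlation to them of 0.990. The standard deviation of a gene had a median of 0.138 among the narrow and 0.215 among the other arrays, and 81.5% of the 14505 genes tested had the smaller one among the narrow arrays. The labels give no date of extraction, hybridisation or scan, so a shared handling batch could not be set against this likeness. All 5 narrow arrays are replicates 1 or 2 of their genotype. The remaining replicate 1 or 2 array of WT, CCAT2-G and CCAT2-T is CCAT2-G replicate 2, while CCAT2-GT replicates 1 and 2, at 3.20 and 3.26, were not narrow. What the replicate numbers stand for is not stated.

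The control probesets were brighter on the narrow arrays. The mean of the 24 poly-A control probesets was 8.38 in CCAT2-T replicate 1, 7.88 in CCAT2-T replicate 2, 7.81 in CCAT2-G replicate 1, 7.80 in WT replicate 1 and 7.60 in WT replicate 2. Among the other arrays CCAT2-G replicate 4 at 7.62 and CCAT2-T replicate 3 at 7.57 reached the same level, and the remaining 11 lay between 5.61 and 6.79. All 24 poly-A probesets had a higher mean on the narrow arrays, by 1.27 to 1.77, and 11 of the 24 did not overlap between the sets, where 2.45% of 14505 genes lay wholly above the other arrays. The mean of the 18 hybridisation controls was 10.4 to 11.0 on the narrow arrays, 10.4 in CCAT2-G replicate 4, 10.5 in CCAT2-T replicate 3 and 9.43 to 9.99 in the remaining 11. All 18 had a higher mean on the narrow arrays, and 0 of 18 were without overlap. The 3 trp probesets, dim on all arrays, read 2.32 to 2.35 against 2.15 to 2.33. High controls thus went with all 5 narrow arrays and also with 2 arrays of ordinary spread.

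**Figure D2:**
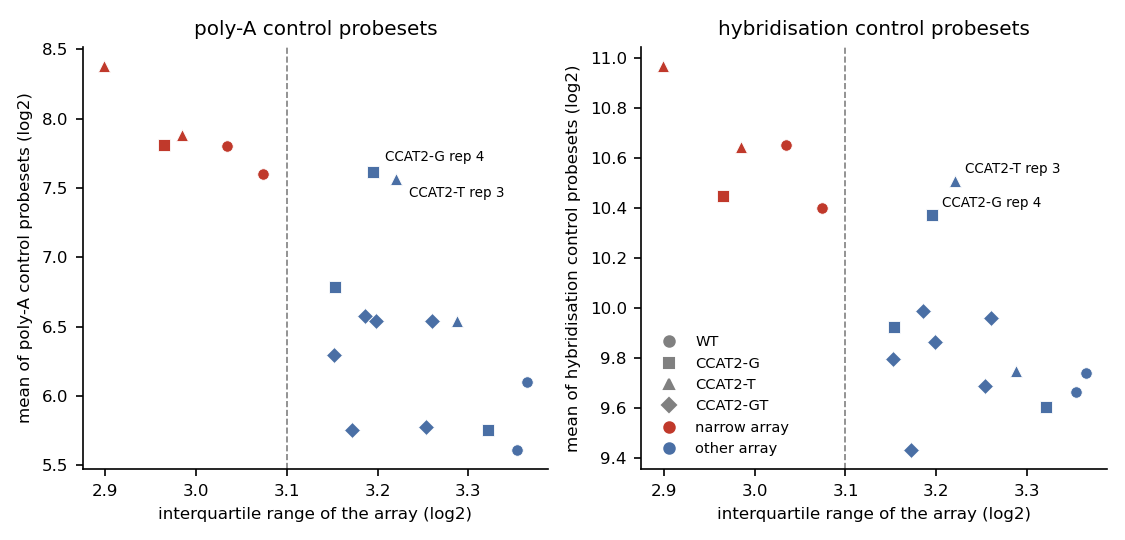
Mean log2 level of the 24 poly-A (left) and 18 hybridisation control probesets (right) against the interquartile range of the array, 1 point per array, with the threshold of 3.1 dashed. The 5 narrow arrays (red) lie left of the line at poly-A levels of 7.60 to 8.38, and CCAT2-G replicate 4 and CCAT2-T replicate 3 share that level at ranges of 3.19 and 3.22.

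Of the measures of RNA integrity, that of Tfrc was lower on the narrow arrays, and the others overlapped widely. The 3' minus 5' probeset difference, which grows as RNA is degraded or copied short, was 0.42 to 0.64 for Actb on the narrow arrays and 0.15 to 1.36 on the others, and 0.10 to 0.28 for Gapdh against -0.14 to 1.34. For Tfrc it was 1.48 ± 0.10 (SD, n = 5) against 1.95 ± 0.28 (SD, n = 13), and only CCAT2-G replicate 2 at 1.34 and replicate 4 at 1.54 fell at or below the narrow maximum of 1.61. For Pcx it was 1.09 to 1.45 against 0.91 to 1.80. The highest Actb and Gapdh values were those of CCAT2-T replicate 3, one of the other arrays. Whether control level, labelling or RNA integrity has a part in the differences below was not tested.

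Spread did not follow DRAI status beyond its error. WT mice had an interquartile range of 3.21 ± 0.18 (SD, n = 4), DRAI- mice one of 3.13 ± 0.16 (SD, n = 8), and DRAI+ mice one of 3.20 ± 0.044 (SD, n = 6). In two-sided exact permutation tests the difference was -0.003 for DRAI+ minus WT (exact p = 0.976, adjusted 0.976 over 3 comparisons), -0.08 for DRAI- minus WT (exact p = 0.448, adjusted 0.673) and 0.08 for DRAI+ minus DRAI- (exact p = 0.280, adjusted 0.673). The narrow arrays were 2 of 4 WT, 3 of 8 DRAI- and 0 of 6 DRAI+ arrays (exact test of the 3 by 2 counts, p = 0.158). Poly-A controls were lower in DRAI+ than in DRAI- mice by an unadjusted test only, with a difference of -1.05 (exact p = 0.0226, adjusted 0.0679 over 3 comparisons). Hybridisation controls went the same way, by -0.49 (exact p = 0.0406, adjusted 0.122).

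Genes of B cells and antigen presentation were higher on the narrow arrays, and genes of monocytes and of early neutrophil granules were lower. The list differences were 1.14, 0.93 and 0.80 for mature B cells, B-cell precursors and MHC class II, and -0.71 and -0.48 for the lower lists in that order. Immediate-early and megakaryocyte genes differed by -0.71 and -0.51, less than their standard deviations of 0.99 and 1.27 among the other arrays. Primary granule genes stood at -0.16 with arrays scaled to the same interquartile range. Of 14505 genes, 69 (0.476%) were higher by more than 1 on the log2 scale, which is a doubling, and 55 (0.379%) were lower by as much, with a median over all genes of -0.02 and 47.6% of genes higher. That split depended on scaling: it was 59 higher and 76 lower with arrays centred on their medians, 102 and 49 after quantile normalization, and 129 and 52 with all arrays scaled to the same interquartile range, where the median gene stood at -0.09, 0.04 and 0.05. All 5 narrow arrays lay above all 13 others for 356 genes (2.45%) and below them for 410 (2.83%). Since the rule chose the arrays on these values, nothing is read from these shares. Counts of list members below are to be set beside them. The 37 lists of marker and pathway genes described here hold 828 measured genes, and a list's score is the mean log2 level of its members on an array. In bulk marrow, fewer cells of a type and less RNA per cell cannot be told apart.

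**Figure D3:**
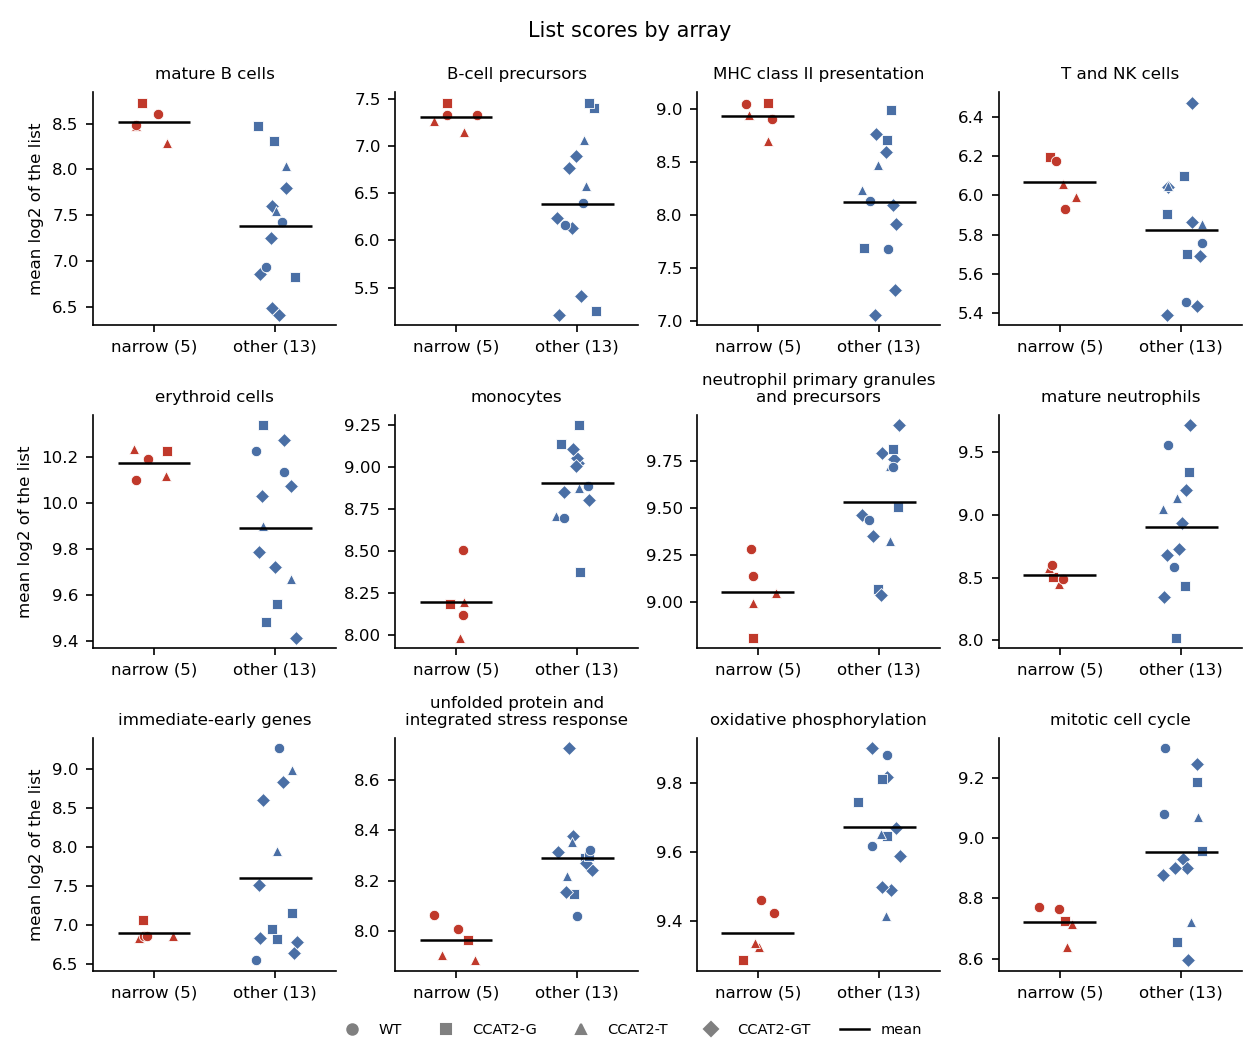
Mean log2 level of 12 gene lists on each array, the 5 narrow arrays in red and the 13 others in blue, with symbols for genotype and a bar at the mean. Mature B-cell scores were 8.29 to 8.73 on the narrow and 6.41 to 8.47 on the other arrays, and monocyte scores 7.98 to 8.51 and 8.37 to 9.25.

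Mature B-cell genes were higher on the narrow arrays. The list score was 8.52 ± 0.16 (SD, n = 5) against 7.38 ± 0.66 (SD, n = 13), 27 of 29 members were higher, 17 by more than 1, and the median member differed by 1.26, where genes of like level differed by -0.14. Cd79a, which passes on the signal of the B-cell antigen receptor, was at 8.93, 9.08, 8.49, 8.99 and 9.03 in CCAT2-T replicate 1, CCAT2-G replicate 1, CCAT2-T replicate 2 and WT replicates 1 and 2. On the other arrays its lowest, median and highest values were 4.83, 6.24 and 9.01. The ranges overlapped through CCAT2-G replicate 4 at 9.01 and CCAT2-G replicate 2 at 8.55, and the 6 CCAT2-GT arrays reached at most 6.99. Ms4a1, which encodes CD20, was at 9.62 to 10.22 on the narrow arrays and at 5.60, 7.94 and 9.94 (lowest, median, highest) on the others, a mean difference of 2.05. Bach2, a transcription factor of B-cell maturation, differed by 1.97 and Fcmr, the Fc receptor for IgM, by 1.84.

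Genes of B-cell precursors followed the same pattern. Their score was 7.31 ± 0.11 (SD, n = 5) against 6.38 ± 0.75 (SD, n = 13), 21 of 23 members were higher, 9 by more than 1, and the median member differed by 0.95. Rag1, which cuts DNA to assemble antigen receptor genes, was at 8.60, 8.87, 8.47, 8.79 and 8.64 on the narrow arrays, in the order given for Cd79a. On the 13 others its lowest, median and highest values were 2.57, 6.77 and 8.81, with CCAT2-G replicate 3 and CCAT2-GT replicate 6 lowest. Vpreb3, a protein of pre-B cells, differed by 1.83, Akap12 by 1.70 and Ebf1, which commits progenitors to the B lineage, by 1.65. Vpreb1, part of the surrogate light chain, differed by 1.58, at 8.31 to 8.57 against 3.99 to 9.16. Among the other arrays only CCAT2-G replicates 2 and 4 had precursor scores, 7.41 and 7.46, within the narrow range of 7.15 to 7.47.

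The MHC class II list scored 8.93 ± 0.14 (SD, n = 5) against 8.13 ± 0.58 (SD, n = 13), and all 9 members were higher, with a median of 0.82. H2-Ob, a chain of the DO protein that tunes peptide loading in B cells, was at 8.22, 8.35, 8.12, 8.38 and 8.01 on the narrow arrays, in the same order, and at 4.33 to 7.93 on the others with a median of 7.14. Those ranges did not overlap. H2-DMb2 differed by 1.10 and Cd74, the chaperone of class II molecules, by 1.05. T and NK cell genes differed by 0.24 on average, less than their standard deviation of 0.30 among the other arrays, with 24 of 29 higher: Cd2 by 0.85, Cd8a by 0.58 and Cd3e, a chain of the T-cell receptor complex, by 0.53. Plasma cell and dendritic cell scores differed by -0.05 and 0.04, less than their standard deviations among the other arrays (0.13 and 0.39). Both signs depended on scaling, with plasma cell genes at 0.05 after quantile normalization and dendritic cell genes at -0.04 after median centring.

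Erythroid genes were higher on average by 0.28, a value that ranged from 0.21 with median centring to 0.68 with arrays scaled to the same interquartile range, and genes of like level differed by -0.17. Of 34 erythroid genes 24 were higher, against 47.6% of all genes, and 33 exceeded the median of genes of like level. Above all other arrays lay 6, against 2.45% of all genes, and 2 were higher by more than 1, against 0.476%. The score was 10.18 ± 0.06 (SD, n = 5) against 9.89 ± 0.31 (SD, n = 13) with overlapping ranges. The difference was thus less than the standard deviation among the other arrays. Mkrn1, a ubiquitin ligase, was at 11.70, 12.13, 12.05, 12.13 and 11.79 on the narrow arrays, in the same order, and at 9.70, 10.86 and 11.54 (lowest, median, highest) on the others. Bpgm, whose product lowers the oxygen affinity of haemoglobin, differed by 1.13, and Alas2, which starts heme synthesis in red cell precursors, by 0.90 (12.41 to 12.66 against 10.81 to 12.34). Fech, which inserts iron into heme, differed by 0.92 and Slc25a37, a mitochondrial iron importer, by 0.66, both without overlap. Of the erythroid transcription factors, Klf1 differed by 0.26 and Gata1 by -0.10, within the spread of the other arrays, and Gata1 by 0.09 after quantile normalization. Ube2o, a ubiquitin-conjugating enzyme active in reticulocytes, differed by 1.11 and Tent5c, an RNA polyadenylating enzyme, by 0.95, again without overlap.

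Monocyte genes were lower. All 23 measured members had a lower mean on the narrow arrays, 6 by more than 1, with a median of -0.71 where genes of like level differed by -0.17. The score was 7.98 in CCAT2-T replicate 2, 8.12 in WT replicate 1, 8.18 in CCAT2-G replicate 1, 8.19 in CCAT2-T replicate 1 and 8.51 in WT replicate 2, against 8.37, 8.89 and 9.25 (lowest, median, highest). Only CCAT2-G replicate 2, at 8.37, fell within the narrow range. Klf4, a transcription factor of monocyte differentiation, was at 7.52, 7.24, 7.10, 7.31 and 7.72 on the narrow arrays, in the order given for Cd79a, and at 7.40 to 9.40 on the others. The LPS co-receptor Cd14 differed by -1.18, the matrix proteoglycan Vcan by -1.27 and the membrane protein Ms4a6d by -1.20, although 1 of 8 Vcan and 1 of 3 Ms4a6d probesets went the other way. Csf1r, the receptor of the monocyte growth factor, differed by -0.52 and overlapped. Resident macrophage genes differed by -0.12 on average, less than their spread of 0.93 among the other arrays.

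The neutrophil lists did not shift together, and their differences followed no order by stage. Primary granule genes, made in promyelocytes, scored 9.06 ± 0.17 (SD, n = 5) against 9.53 ± 0.29 (SD, n = 13), and 17 of 18 were lower, with a median of -0.49 against -0.17 for genes of like level. Ctsc, the protease that activates granule enzymes, was at 8.46, 8.78, 8.20, 8.38 and 8.66 on the narrow arrays and at 8.87 to 10.39 on the others, with no overlap. Gfi1, a transcription factor of neutrophil development, differed by -0.88, proteinase 3 (Prtn3) by -0.85 and cathepsin G (Ctsg) by -0.79, while Elane differed by -0.07, or 0.04 after quantile normalization. Mpo, the myeloperoxidase gene, differed by -0.48, and by 0.060 once arrays were scaled to the same interquartile range. Secondary granule genes had the same mean in both sets, 11.07, with Ltf, the lactoferrin gene, differing by 0.05, and S100a8, an alarmin near the top of the scale, was at 13.76 in both. The signs of both genes turned under some scalings. The mature neutrophil list differed by -0.38, less than its spread of 0.50 among the other arrays, with 23 of 26 lower, and its members of largest difference were the chemokine Cxcl2 at -2.54, the receptor Clec4e at -0.74 and the cytokine Il1b at -0.70.

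Stem and progenitor genes differed by -0.18 on average, less than their standard deviation of 0.20 among the other arrays, with a median of -0.07. Of 18 members 11 were lower and 7 higher. Cd34 differed by -0.89, Meis1, with 1 of 3 probesets the other way, by -0.78 and the stem cell factor receptor Kit by -0.72. Meis1 was dim on the narrow arrays, at 3.62 to 3.96. Megakaryocyte and platelet genes were lower in all 26 members, by -0.51 on average, yet the narrow scores of 6.95 to 7.33 lay inside the range of the others, 6.12 to 10.05, whose highest values were CCAT2-GT replicates 4 and 6. Without those 2 arrays and WT replicate 4, the arrays richest in stromal genes, the difference was 0.02. Stromal, adipocyte and muscle lists differed by 0.16, 0.27 and 0.30, each less than its standard deviation among the other arrays. The muscle score was highest in WT replicate 4 at 6.08 and in CCAT2-T replicate 1, a narrow array, at 6.00. Xist, expressed from the inactive X chromosome of females, was at 3.83 to 4.05 and the Y-linked Eif2s3y at 6.96 to 7.55 on the narrow arrays, so all 5 mice were male by these genes. Of the 13 others 4 were high in Xist, at 10.7 or more, and without them mature B-cell genes still differed by 1.12 and monocyte genes by -0.66.

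**Figure D4:**
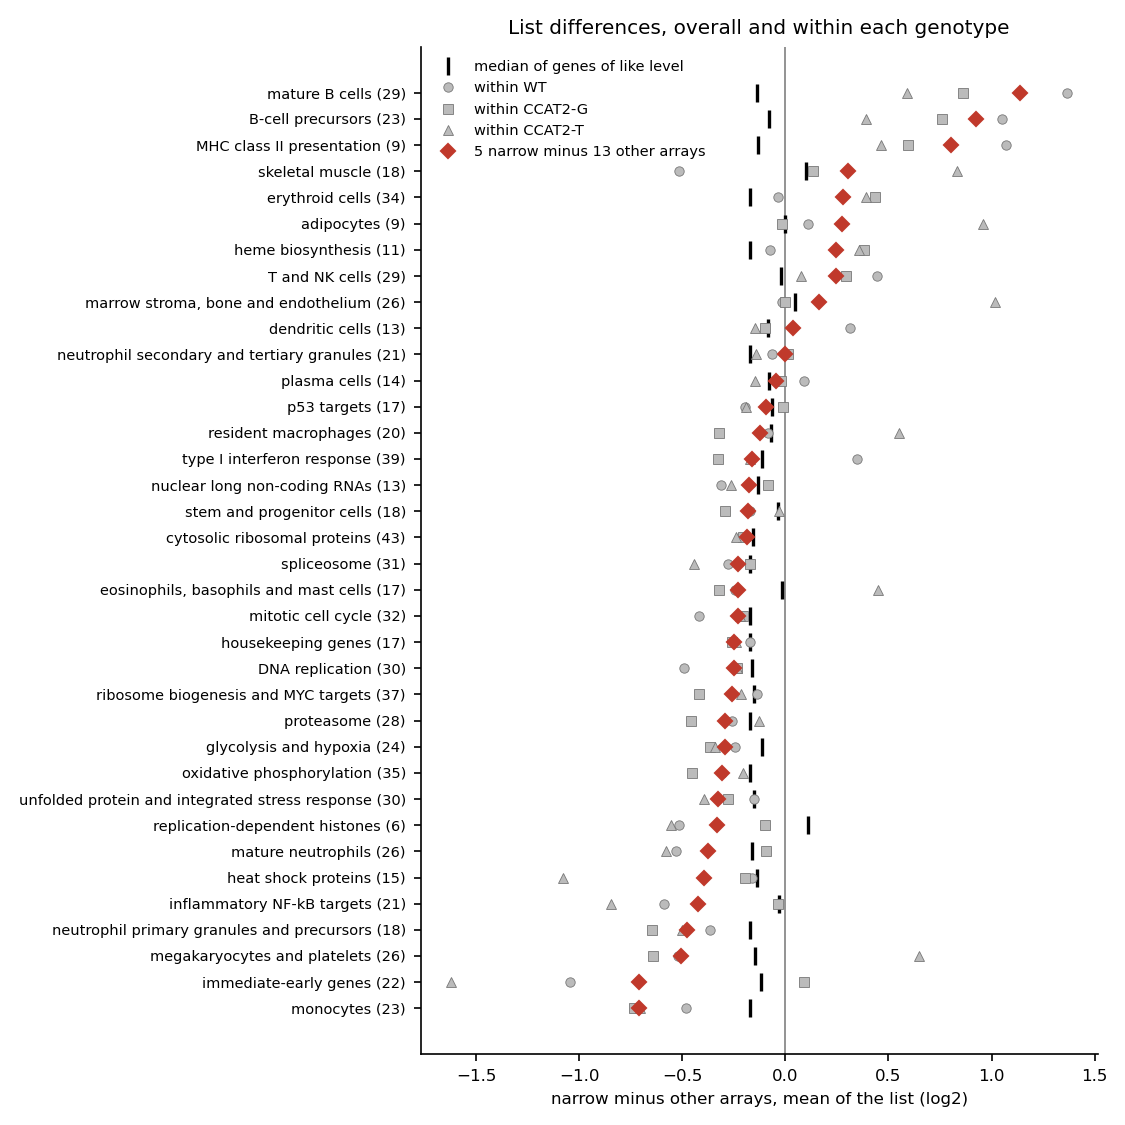
Mean log2 difference, narrow minus other arrays, for 36 gene lists (measured members in brackets): all 5 against all 13 arrays (red diamonds), within WT, CCAT2-G and CCAT2-T (grey symbols) and the median of genes of like level (black ticks). B-cell and MHC class II lists lie right of 0 in all 3 genotypes, and monocyte and primary granule lists left of it.

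Stress and inducible genes were more even on the narrow arrays, but this was not particular to them. In all, 35 lists had the smaller standard deviation among the narrow arrays. Only the plasma cell and skeletal muscle lists had the larger one there, at 0.14 against 0.13 and 0.52 against 0.42. Immediate-early genes, transcribed within minutes of a stimulus, scored 6.90 ± 0.09 (SD, n = 5) against 7.61 ± 0.99 (SD, n = 13). Fos was at 5.95, 6.97, 5.71, 6.35 and 6.22 on the narrow arrays, in the order given for Cd79a, and at 6.03, 8.64 and 13.05 (lowest, median, highest) on the others. The high values came from WT replicate 3 at 13.05, CCAT2-GT replicate 1 at 12.83, CCAT2-T replicate 3 at 12.62 and CCAT2-GT replicate 5 at 12.47, while CCAT2-G replicates 2 and 4, WT replicate 4 and CCAT2-GT replicates 4 and 6 were within the narrow range. Jun differed by -2.38, Junb by -1.44 and Egr1 by -1.51. The NF-kB target list differed by -0.42, less than its standard deviation of 0.62 among the other arrays, with 15 of 21 members lower and 6 higher. Its members Ptgs2 and Ccl3, a chemokine, differed by -2.02 and -1.86. The median of Ptgs2 was 2.57 on the narrow arrays and 2.53 on the others, some of which were far higher. The heat shock genes Hspa1b and Hspa1a differed by -1.49 and -1.11, with the highest value of each, 10.75 and 8.64, in CCAT2-T replicate 3. These genes are near-identical copies, so their probesets may share signal. In the unfolded protein and integrated stress response list 26 of 30 were lower, with a score of 7.97 ± 0.07 (SD, n = 5) against 8.29 ± 0.16 (SD, n = 13). The list differed by -0.32 where genes of like level differed by -0.15, and 23 members lay below the median of such genes. With arrays scaled to the same interquartile range the list stood at -0.10. Among its members Creld2, a chaperone of the endoplasmic reticulum, differed by -0.86 without overlap and the disulfide isomerase Pdia3 by -0.83.

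Growth and housekeeping lists were lower, as bright genes were in general. Oxidative phosphorylation differed by -0.31 with 33 of 35 lower, glycolysis by -0.29 with 19 of 24, proteasome by -0.29 with 26 of 28, ribosome biogenesis by -0.26 with 31 of 37 and DNA replication by -0.25 with 27 of 30. Genes of like level differed by -0.17, -0.11, -0.17, -0.15 and -0.16 in that order. Below the median of genes of like level lay 31, 19, 23, 22 and 22 members. Of all probesets in the 2 brightest bins only 23.3% and 23.4% were higher on the narrow arrays. Spliceosome, mitotic and cytosolic ribosomal protein lists differed by -0.23, -0.23 and -0.19, and the median of genes of like level was -0.17, -0.17 and -0.16 for them. The mitotic, DNA replication, ribosomal, oxidative phosphorylation, spliceosome, proteasome, nuclear long non-coding RNA and housekeeping lists all changed sign when arrays were scaled to the same interquartile range, to values of 0.056, 0.0064, 0.28, 0.032, 0.090, 0.0097, 0.021 and 0.19. Actb, with 1 of 5 probesets the other way, and Gapdh did likewise, from -0.11 to 0.56 and from -0.25 to 0.28. The glycolytic and ribosome biogenesis lists kept a negative sign at -0.10 and -0.070. The list named nuclear long non-coding RNAs was the 1 list whose scores did not overlap, at 7.60 to 7.66 against 7.67 to 8.08. Where its members lie in the cell was not measured. The list differed by -0.18, where genes of like level differed by -0.13. Snhg12 differed by -0.59 and Snhg6 by -0.55, while Meg3 was higher by 0.74, with 2 of its 11 probesets the other way.

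The genes of largest difference without overlap came from several lineages. Above all other arrays, after Srpk3 (1.78), H2-Ob (1.52), Mkrn1 (1.16) and Bpgm (1.13), stood Reln, the extracellular protein reelin, at 1.11, Cdr2 at 1.11, Marchf2, a membrane ubiquitin ligase, at 1.08 with 1 of 4 probesets the other way, and Ccndbp1 at 1.00. Srpk3, a kinase of splicing factors, was at 7.33, 7.33, 7.20, 7.33 and 7.44 on the narrow arrays and at 3.82 to 7.05 on the others. Below all others, beside Ctsc, stood F10, coagulation factor X, at -1.26, Tfec, a macrophage transcription factor, at -1.18, and Gla, the lysosomal alpha-galactosidase, at -1.18. They were followed by Mdm1 at -1.12, Ly96, the LPS-binding partner of TLR4, at -1.09, Olfm1 at -1.05, Ccdc88a at -0.997, Hacd1 at -0.99 and Gsto1 at -0.98. F10 was at 5.98, 6.26, 5.75, 5.95 and 6.45 on the narrow arrays, in the same order, and at 6.63 to 8.20 on the others.

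Within single genotypes the pattern could be read against mice of the same label, though from 1 or 2 narrow arrays each. Across genes the difference within WT correlated with that within CCAT2-G at r = 0.68 and with that within CCAT2-T at 0.55, and the CCAT2-G and CCAT2-T differences correlated at 0.51. These values, over 14505 genes, share no array, but genes are not independent and all carry the trend with level. Of all genes 65.1% had 1 sign in the 3 genotypes. Mature B-cell genes differed by 1.37 within WT, 0.86 within CCAT2-G and 0.59 within CCAT2-T, B-cell precursors by 1.05, 0.76 and 0.39 and MHC class II by 1.07, 0.60 and 0.46. Monocyte genes differed by -0.48, -0.74 and -0.70 and primary granule genes by -0.37, -0.65 and -0.50. By contrast immediate-early genes differed by -1.04, 0.09 and -1.62, the interferon list by 0.35, -0.33 and -0.17, and the erythroid list by -0.04, 0.43 and 0.39. The CCAT2-GT mice had no narrow array, so no such value exists for them.

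A further comparison used the 2 other arrays that shared the high control level. Against CCAT2-G replicate 4 and CCAT2-T replicate 3 alone, monocyte genes differed by -0.81 and the unfolded protein and integrated stress response by -0.29, close to the values against all 13 arrays. Mature B-cell genes differed by 0.51, B-cell precursors by 0.29 and MHC class II by 0.32, smaller than against all 13. Erythroid genes differed by 0.60, more than against all 13, and T and NK cell genes by -0.00. The mitotic list turned to 0.036, and the poly-A and hybridisation controls differed by 0.30 and 0.18. The pair differed in B-cell genes, with mature B-cell scores of 8.47 and 7.54, and the comparison was chosen after the values were seen. CCAT2-T replicate 3 also had the highest Actb and Gapdh 3' minus 5' differences of all arrays, 1.36 and 1.34, and was high in Xist at 12.02. The 2 arrays together are thus matched to the narrow arrays in control level alone. CCAT2-G replicate 4 by itself also lay within the narrow range in Tfrc 3' minus 5' difference, at 1.54, and in B-cell precursor score, at 7.46. Its monocyte score, 9.14, lay outside that range.

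Since the narrow set mixes WT and DRAI- mice, the labelled comparisons were also run within each class of array, with limma's moderated test fitted on the 5 narrow arrays or on the 13 others and Benjamini-Hochberg adjustment over 14505 genes. Within the narrow arrays, 3 DRAI- against 2 WT, no gene passed an adjusted p of 0.05 (0%), and 1242 had an unadjusted p under 0.05, 874 of them lower in DRAI-. Of all 14505 genes 8548 were lower in DRAI- in this comparison. By chance a share of 0.05 of genes has an unadjusted p under 0.05, here and in the fits below, so nothing is read from these counts. The smallest p values were those of Gpr158, an orphan receptor, higher by 0.81 (SE 0.13), Clec4a3, a lectin of myeloid cells, lower by a difference of -0.78 (SE 0.13), and Zeb2, a transcription factor, at -0.61 (SE 0.10), each with a limma adjusted p of 0.463. Pik3cd and Il1b differed by 0.37 (SE 0.08) and 0.41 (SE 0.09) and Adgre4 by -0.78 (SE 0.15), at a limma adjusted p of 0.574. With 5 DRAI-, 6 DRAI+ and 2 WT mice among the other arrays, counts past the threshold by limma were also 0 of 14505 (0%) for DRAI- against WT, DRAI+ against WT and DRAI+ against DRAI-, with 1034, 970 and 803 genes at an unadjusted p under 0.05. In the first of these Inhbc, Abi3 and Epha1 had the smallest p among higher genes and Eml6, Ppm1l and Prpf39 among lower ones, all at a limma adjusted p of 0.656. Without WT replicate 3, 6 genes passed by limma for DRAI- and 7 for DRAI+, all lower than in WT replicate 4, the only WT array then left in this fit. They were the muscle genes Actn3, Ckm, Mybpc2, Pvalb and Tnnt3 and the pigment cell gene Mlana in both, and Tnni2 in the second. WT replicate 4 had the highest muscle score of all arrays.

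List values differed between the classes. For DRAI- minus WT, mature B-cell genes differed by -0.05 within the narrow arrays and 0.66 within the others, MHC class II by -0.08 and 0.51, the interferon list by -0.09 and 0.47, and heat shock genes by -0.07 and 0.41. Erythroid genes differed by 0.05 and -0.39, megakaryocyte genes by -0.15 and -0.47 and muscle genes by 0.42 and -0.69. The muscle values rest largely on 1 array in each class. CCAT2-T replicate 1 scored 6.00, with the next narrow array at 4.91, and WT replicate 4 scored 6.08, with WT replicate 3 at 4.58. Megakaryocyte scores were 8.57 in WT replicate 4 and 7.06 in WT replicate 3. The mean over all genes was -0.03 and 0.00. No list difference between classes was tested. Gene by gene the interaction test, fitted on all 18 arrays, compared DRAI- minus WT between narrow and other arrays and called 0 of 14505 genes (0%) by limma, with 529 at an unadjusted p under 0.05 and a smallest adjusted p of 1.00. The 529 genes are fewer than the share of 0.05 that chance alone gives at this threshold. Only WT replicates 3 and 4 stand for WT among the other arrays.

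**Figure D5:**
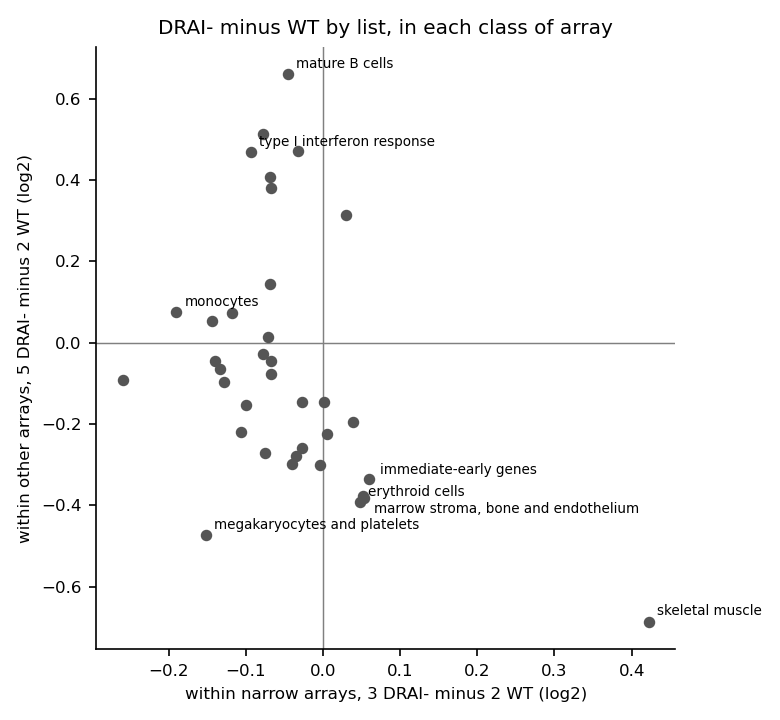
Mean log2 difference of 36 gene lists for DRAI- minus WT within the narrow arrays (3 against 2, horizontal) and within the other arrays (5 against 2, vertical), 1 point per list. Mature B-cell genes lie at -0.05 and 0.66 and muscle genes at 0.42 and -0.69, and most lists stay nearer 0 on the horizontal axis. The muscle values rest largely on CCAT2-T replicate 1 and on WT replicate 4.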

How the data were processed

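Bone marrow RNA of 18 mice was measured on 18 arrays. The authors deposited log2 expression values for 45101 probesets, made with RMA per the submitters' processing notes. For RMA's version and probe definitions: not given in the sources used here. That the deposited numbers are log2 follows from their range, 1.56 to 14.2. Arrays give no read depth, so their number limits the precision.

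Interquartile ranges were computed over all probesets, and arrays below 3.1 were called narrow. Of the probesets 34958 had 1 gene symbol in the platform annotation. A gene was represented by its brightest probeset, and genes with a mean under the 30th percentile (3.30) were left out, which kept 14505 of 18194. List symbols were updated through RefSeq: 847 of 993 entries matched and 828 were measured. The members, lists and comparisons were chosen with earlier results of these data known. Genes were named by rule: the 10 largest differences without overlap in each direction, without predicted genes and receptor segments, 2 to 4 members of largest difference per list described, a fixed set of lineage and quality genes, and the 3 smallest p in each direction per labelled comparison. For some of these no value is printed.

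Labelled comparisons were fitted with limma (version 3.58.1, R version 4.3.3) with a mean-variance trend and checked on simulated data, and single values exact permutation tests (Python 3.11.15, scipy 1.17.1). The titles call the samples biological replicates, and the mice's origin is otherwise not stated. Alternatives were median centring, quantile normalization and scaling to the mean interquartile range, other filters, the mean of probesets, other spread measures, no trend, array weights, a replicate block, class of array as a block or ignored, and leaving out arrays. Those with CCAT2-G replicate 4 and CCAT2-T replicate 3, and the poly-A level as a covariate, were chosen after seeing the data.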

Additional observations from a re-analysis of the deposited data

Results flagged for a closer look

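Within groups of 4 to 10 arrays, 13 list scores held an array whose gap to the nearest of the others took up an unusually large share of the group's range by Dixon's criterion. Chance flags about 1 in 20 groups, and 200 were checked. Among the 5 narrow arrays, CCAT2-T replicate 1 stood apart in plasma cell genes, at 6.78 with the next array at 7.06, and in skeletal muscle genes, at 6.00 with the next at 4.91. CCAT2-G replicate 1 stood apart in immediate-early genes, at 7.07 with the next at 6.87.

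WT replicate 3, one of the 13 other arrays, stood apart from the other WT mice in mature neutrophil genes (9.56), immediate-early genes (9.27), NF-kB targets (7.02) and p53 targets (6.93). WT replicate 4 did so in eosinophil, basophil and mast cell genes at 6.25. CCAT2-G replicate 3 was apart from the other CCAT2-G mice in B-cell precursor genes, at 5.25 with the next at 7.41, and in eosinophil, basophil and mast cell genes, at 6.80. CCAT2-T replicate 3 was apart in nuclear long non-coding RNAs, at 8.08, and in the sex-linked list, at 4.83. CCAT2-GT replicate 2 was apart in nuclear long non-coding RNAs at 7.94.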

How the results depend on the processing

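Most results kept their direction and size under most alternatives. Scaling all arrays to the mean interquartile range changed the most: 129 genes were higher by more than 1 on the log2 scale, 548 lay above and 170 below all other arrays, and the hybridisation controls differed by 1.17. Under it the lists of primary granules differed by -0.16, monocytes by -0.46, the unfolded protein and integrated stress response by -0.10, ribosome biogenesis by -0.070 and glycolysis by -0.10. Signs turned for the mitotic (0.056), DNA replication (0.0064), ribosomal protein (0.28), oxidative phosphorylation (0.032), spliceosome (0.090), proteasome (0.0097), nuclear long non-coding RNA (0.021) and housekeeping lists (0.19) and for Mpo (0.060), Actb (0.56) and Gapdh (0.28). Median centring gave 185 genes above and 621 below all other arrays, and ribosomal proteins at -0.26. Quantile normalization gave 160 genes below, and ribosomal protein, spliceosome and housekeeping lists at -0.10, -0.074 and -0.14. The filter at the 50th percentile left 232 genes above, and the mean of probesets 45 higher by more than 1; fewer genes and averaged values are what these settings make. Without the DRAI+ arrays 42 genes were higher by more than 1, 748 lay above and 834 below; without the 4 Xist-high arrays 565 and 835 did; fewer arrays to clear raise such counts. With 1 array left out, or both CCAT2-G replicate 4 and CCAT2-T replicate 3, the count above was 360 to 603 and below 412 to 684, both moving by over 1.5 times without WT replicate 2 (603 and 679) and without that pair (535 and 684). Against that pair alone, heat shock genes differed by -0.95, mitotic genes by 0.036, spliceosome genes by -0.34, housekeeping genes by -0.14, and poly-A and hybridisation controls by 0.30 and 0.18. The difference in interquartile range between DRAI+ and WT, -0.003, was 0.0090 over filtered genes, 0.011 over probesets with 1 symbol, 0.0044 as a standard deviation, 0.022 as the 5th to 95th percentile range, and -0.061 to 0.050 with 1 array left out. Except for the changes in the number of genes or arrays, the cause was not tested.

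In the labelled comparisons 0 genes passed under nearly all alternatives. The exceptions were WT replicate 3 left out (0 to 6 genes for DRAI- and 0 to 7 for DRAI+ against WT among the other arrays over single arrays left out) and the replicate block within the narrow arrays (1 gene, a variable segment of the immunoglobulin kappa light chain, lower in DRAI- and picked out after its value was seen). Whether replicate numbers pair the mice or mark a shared handling could not be settled from the values. Same-numbered arrays of different groups correlated at -0.36 to 0.67 in their deviations (24 pairs, median 0.09). Differently numbered ones correlated at a median of -0.07, and 6 of 18 arrays had their best partner under their own number. WT groups of 2 arrays limit every such comparison, and a lone WT array left by leaving out the other is assumed to vary like the other groups.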
